A study of Mus musculus with 23 samples.

Results

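The genes of MHC class II antigen presentation were followed in RNA of cardiac macrophages from mice with a Cre-driven deletion of Smad7 in myeloid cells and from littermates without Cre, before and after myocardial infarction. The set held 10 genes, matched by gene name in a count table of 54532 genes: the class II chains H2-Aa, H2-Ab1 and H2-Eb1, the peptide exchange factors H2-DMa, H2-DMb1 and H2-DMb2, the invariant chain Cd74, the transactivator Ciita, the thiol reductase Ifi30 and the co-stimulatory ligand Cd86. All 10 were found, and all 10 were among the 16545 genes that passed the low-count filter. The MyS7KO mice carried a floxed Smad7 and LyzM-Cre, a Cre recombinase under the lysozyme M promoter, and their S7fl/fl littermates carried the floxed gene without Cre, all on the C57BL/6 strain. The Smad7 protein is a feedback inhibitor of TGF-beta receptors. Under this promoter, cells that do not express lysozyme M keep the gene, and neither the deleted part of the gene nor the age of the mice is given in the labels. Cells were taken from uninjured hearts (baseline) or at day 3 and day 7 of a permanent, non-reperfused coronary ligation, and were sorted with magnetic beads as Ly6G-negative and CD11b-positive. The groups held 3 MyS7KO and 3 S7fl/fl libraries at baseline, 5 MyS7KO and 5 S7fl/fl at day 3, and 4 MyS7KO and 3 S7fl/fl at day 7. Because the labels do not tie each library to its own heart, the p-values below describe only the spread between these samples.

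Class II molecules display peptides from endocytosed material to CD4+ T cells. H2-Aa and H2-Ab1 encode the alpha and beta chains of I-A. H2-Eb1 encodes the beta chain of I-E, whose alpha chain gene is defective in C57BL/6 mice. The invariant chain, Cd74, binds new class II dimers, guides them to endosomes and leaves a fragment in the peptide groove. The H2-DM dimer, made of H2-DMa with a DMb chain, exchanges that fragment for antigenic peptide. Ifi30, also called GILT, reduces disulfide bonds of antigens in lysosomes. Ciita does not bind DNA itself but activates class II promoters through factors that sit on their X and Y boxes. Cd86 gives T cells a second signal through CD28. Dendritic cells and B cells carry class II constitutively, whereas macrophages carry it in varying amounts, in the heart on subsets of resident and of monocyte-derived cells.

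Library totals ran from 15.5 to 23.9 M counts. Levels below are CPM, counts scaled to a common library total with TMM factors. They are given for each library or as mean ± SD, whereas a log2 change, taken from edgeR, carries its standard error after ±. A gene is called where edgeR's adjusted p is under 0.05. Smad7 itself read 19.7 to 48.7 CPM in MyS7KO and 53.1 to 61.2 CPM in S7fl/fl libraries at baseline, 10.5 to 19.9 against 30.4 to 42 CPM at day 3, and 16 to 33.4 against 57.4 to 70.2 CPM at day 7. Smad7 reads were thus reduced and not absent, and 2 of the 3 MyS7KO baseline libraries, at 45.6 and 48.7 CPM, lay close to S7fl/fl. Macrophage markers (9 genes, among them Adgre1, Csf1r and C1qa) summed to between 7756 and 14174 CPM over all groups, but did not move together. At day 3 against baseline Cd68, Itgam and Fcgr1 were called higher (log2 1.41 to 2.04 in MyS7KO and 1.51 to 1.97 in S7fl/fl). Csf1r, C1qc and Mertk were called lower (-1.05 to -0.46 in MyS7KO and -0.87 to -0.51 in S7fl/fl). C1qa was called lower in S7fl/fl (-0.73 ± 0.17) and not in MyS7KO, and Adgre1 and C1qb were called in neither. By their Xist and Y-linked counts, day 7 held 4 female MyS7KO and 3 male S7fl/fl libraries, so there a genotype difference and a sex difference cannot be told apart. The groups of the other times were of both sexes, so the make-up by sex also shifts in comparisons of day 7 with them. A further 3 libraries of day 3, MyS7KO replicates 2 and 3 and S7fl/fl replicate 4, carried reads of both kinds, with a minor signal over 2%.

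Among the members searched, which do not include Cd74, H2-Aa, H2-Eb1, H2-DMb1 and H2-DMb2 share a short pattern ahead of their RefSeq starts. It is shown because Ciita activates class II promoters through factors on X and Y boxes. Whether Ciita acts at these matches was not tested. An X box core, AACNGATG, or the cyclic AMP response core GACGTC that can stand within an X region, lay 10 to 40 bases ahead of the Y box core ATTGG. The stretches below are from RefSeq (GRCm38.p6), read 5′ to 3′ on the gene's strand, with the cores in capitals. They lie outside annotated exons, at chr17:34287842-34287921 (minus strand) for H2-Aa, chr17:34305753-34305837 (plus strand) for H2-Eb1, chr17:34145103-34145188 (plus strand) for H2-DMb2 and chr17:34325525-34325604 (plus strand) for H2-Eb2, a class II beta chain gene beside H2-Eb1 that is not among the 10.
H2-Aa: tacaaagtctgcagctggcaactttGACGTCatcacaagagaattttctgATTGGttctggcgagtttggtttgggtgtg
H2-Eb1: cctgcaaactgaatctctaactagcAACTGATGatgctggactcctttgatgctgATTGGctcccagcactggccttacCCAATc
H2-DMb2: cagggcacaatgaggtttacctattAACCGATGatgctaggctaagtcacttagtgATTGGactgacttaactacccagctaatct
H2-Eb2: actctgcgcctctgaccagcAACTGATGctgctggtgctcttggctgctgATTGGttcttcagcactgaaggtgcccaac

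The first core began 73 bases before the RefSeq start in H2-Aa, 89 in H2-Eb1, 121 in H2-DMb2 and 92 in H2-DMb1. The RefSeq start lies within 10 bases of the gene start in the files for H2-Aa and H2-Eb1. For H2-DMb2 it lies 1942 bases and for H2-DMb1 119 bases downstream of that start, so both DMb pairs fall inside the genes as the files bound them. The H2-DMb2 pair lies outside exons there, and the H2-DMb1 pair lies within an annotated exon and is not printed. The gap to the Y box core was 19 bases from GACGTC in H2-Aa. From AACNGATG, a different first core, it was 22 bases in H2-Eb1 and 23 in both DMb genes. H2-Eb1 held a further Y box core on the other strand, printed as CCAAT. The 150 bases before the RefSeq start of Ifi30 held none of these letters. Of 32851 RefSeq promoter windows of the same length, searched on both strands, 1.14% held AACNGATG, 2.93% GACGTC and 24.5% ATTGG, and 66 (0.201%) held a first core and a Y box core at this distance. The letters were spelled out after these promoters had been read, so the shares describe how common the pattern is and test nothing. H2-Oa and H2-Ob, the chains of the DM inhibitor H2-DO, each held ATTGG without a first core.

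**Figure D1:**
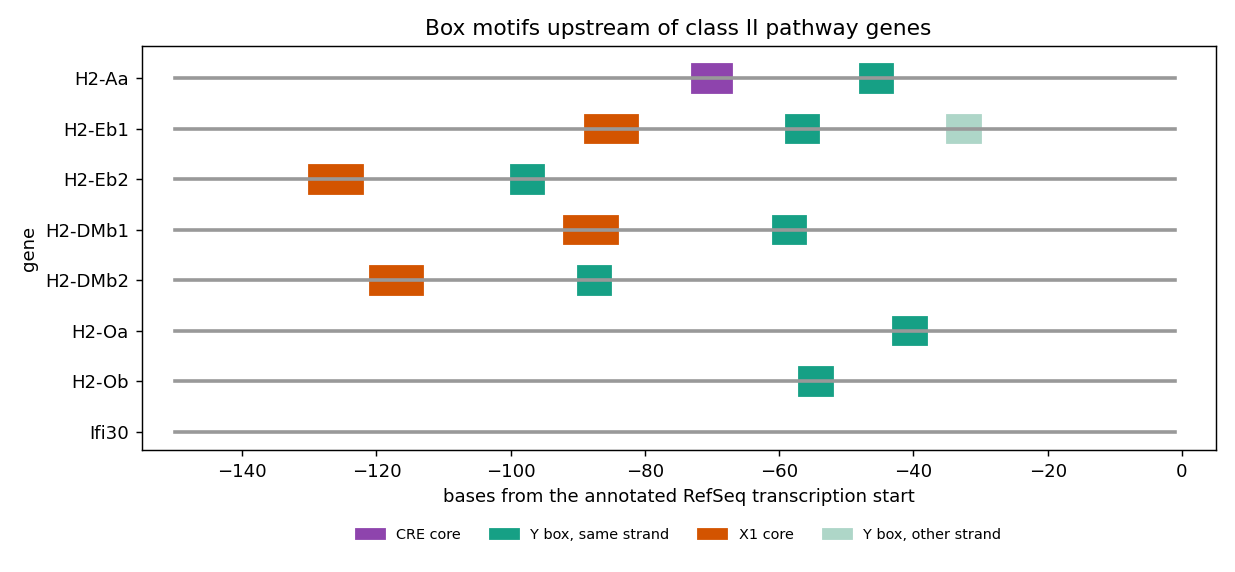
Position of each core in the 150 bases before the RefSeq start of 8 class II pathway genes (x axis, bases from the start; 1 row a gene). The first core and the Y box core lie in the same order in H2-Aa, H2-Eb1, H2-Eb2, H2-DMb1 and H2-DMb2, H2-Oa and H2-Ob show a Y box core only, and Ifi30 shows none.

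Compared per length, Cd74 was the highest of the 10 in each group: 5789 ± 568 FPKM in MyS7KO and 6284 ± 2020.4 FPKM in S7fl/fl at baseline (FPKM, fragments scaled by gene length and library total, as deposited; SD, n = 3 each). That placed it at rank 3 of all genes in both baseline groups by mean FPKM. Its rank was 13 in MyS7KO and 16 in S7fl/fl at day 3, and 6 in MyS7KO and 8 in S7fl/fl at day 7. The class II chains followed, with H2-Eb1 at 3034 and 2957 FPKM and H2-Aa at 1896 and 1942 FPKM in baseline MyS7KO and S7fl/fl cells. The peptide loading genes were an order of magnitude lower, with H2-DMa at 124 and 136 FPKM and H2-DMb1 at 122 and 128 FPKM in the same groups. H2-DMb2 at 4.92 and 7.02 FPKM and Ciita at 6.71 and 6.02 FPKM were the least abundant. H2-Ea-ps, the defective I-E alpha gene, had 0 to 7 counts per library.

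The first comparison asked how class II transcripts in the macrophage sort differed between the infarct at day 3 and the uninjured heart. The class II chains, Cd74, Ciita, H2-DMa, H2-DMb1 and Cd86 fell in both genotypes, Ifi30 rose in both, and H2-DMb2 rose in MyS7KO. Of the 10 members, 2 were called higher and 8 lower in MyS7KO, where 65.9% of all genes tested were called, 30.7% higher and 35.2% lower. In S7fl/fl cells 1 was called higher and 8 lower, where 64% of all genes were called, 29.9% higher and 34.1% lower. The groups did not overlap for 2 members upward and 8 downward in MyS7KO (29% and 31.8% of all genes) and for 1 and 7 in S7fl/fl (26.6% and 31.7%). The median log2 change of the members was -1.05 in MyS7KO and -1.44 in S7fl/fl, against -0.10 and -0.06 over all genes tested. Together the 10 genes took 0.626 to 0.927% of all counts in MyS7KO at day 3, against 1.90 to 2.39% at baseline, and 0.589 to 0.742% in S7fl/fl at day 3, against 1.99 to 2.84% at baseline. In bulk RNA such as this, fewer cells of a type and less RNA per cell cannot be told apart.

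Ciita, the transactivator on chromosome 16 (10480059 to 10528418, GRCm38), had the largest fall of the 10. It read 55.2, 71.1 and 66.1 CPM in MyS7KO at baseline, 9.09, 15.6, 14.9, 14.3 and 12 CPM at day 3, and 37.4, 27.3, 36.7 and 34.5 CPM at day 7. The S7fl/fl libraries read 63.7, 52.2 and 58.1 CPM at baseline, 10.7, 13.1, 15.1, 14 and 11.4 CPM at day 3, and 26.7, 17 and 36.9 CPM at day 7. Each day 3 library lay below each day 7 library, and each day 7 library below each baseline library. At day 3 Ciita fell 4.86-fold against baseline in MyS7KO (log2 -2.28 ± 0.19, edgeR adjusted p = 9.8e-10) and 4.52-fold in S7fl/fl (log2 -2.18 ± 0.19, with edgeR adjusted p = 2.33e-09). Its exons overlap 329 bases of Dexi on the opposite strand. Whether the authors' counting used the strand is not given in the sources used here, so some of these reads may belong to Dexi.

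H2-Aa, the I-A alpha chain (chromosome 17, 34282744 to 34287827), read 3259.7, 2927 and 4480.3 CPM in MyS7KO at baseline, 1005, 1467, 1402, 1130.0 and 1499.7 CPM at day 3, and 1829, 1778, 2435 and 2269 CPM at day 7. In S7fl/fl it read 3298, 4263 and 3470.1 CPM at baseline, 981, 1188, 1086, 938 and 1218 CPM at day 3, and 2217, 2069 and 2561 CPM at day 7. The 3 times were fully separated within each genotype, and the genotypes overlapped at each time. It fell 2.73-fold at day 3 in MyS7KO (log2 -1.45 ± 0.16, edgeR adjusted p = 3.56e-08) and 3.40-fold in S7fl/fl (log2 -1.76 ± 0.16, with edgeR adjusted p = 2.22e-09). H2-Eb1, the I-E beta chain (chromosome 17, 34305877 to 34316199), read 3457, 3099 and 4232 CPM in MyS7KO at baseline, 1038, 1452, 1303, 1093 and 1434 CPM at day 3, and 1952, 1786, 2452 and 2156 CPM at day 7. In S7fl/fl it read 3025, 4223 and 3364 CPM at baseline, 982, 1127, 1029, 911 and 1127 CPM at day 3, and 2132, 2003 and 2446 CPM at day 7. The order of times was that of H2-Aa, with no overlap in either genotype. The day 3 change of H2-Eb1 was log2 -1.51 ± 0.14 in MyS7KO and -1.77 ± 0.14 in S7fl/fl (with edgeR adjusted p = 4.5e-09 and 4.37e-10). H2-Ab1, the I-A beta chain (chromosome 17, 34263209 to 34269418), averaged 1479 ± 263 CPM in MyS7KO at day 3 (n = 5), against 3122 ± 311 CPM at baseline (n = 3). In S7fl/fl it averaged 1219 ± 150 CPM at day 3 (n = 5), against 2823, 4756 and 3208 CPM in the baseline libraries. It fell in both genotypes (log2 -1.08 ± 0.16 in MyS7KO and -1.56 ± 0.16 in S7fl/fl, with edgeR adjusted p = 4.19e-06 and 2.23e-08).

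Cd74 (chromosome 18, 60803848 to 60812646) read 8715, 7299 and 8499.9 CPM in MyS7KO at baseline, 2412, 4049, 3557, 2779.9 and 3221 CPM at day 3, and 4482, 3791, 5935 and 5159 CPM at day 7. The S7fl/fl values were 7249, 12226 and 7365 CPM at baseline, 2577, 2654, 2735, 2544 and 3048 CPM at day 3, and 4946, 4397 and 5302 CPM at day 7. The highest MyS7KO library of day 3 reached into the day 7 range, and the other times were separate. S7fl/fl baseline replicate 2 stood above its group, as it did for H2-Aa, H2-Ab1, H2-Eb1, H2-DMa and H2-DMb1. Its B cell, dendritic cell and macrophage marker sums were 224, 303 and 11470.5 CPM, against 200.4 and 239, 280.4 and 287, and 9295 and 9809 CPM in the other S7fl/fl baseline libraries. Their part in its class II level was not tested. Cd74 fell 2.55-fold at day 3 in MyS7KO (log2 -1.35 ± 0.17, edgeR adjusted p = 4.67e-07) and 3.30-fold in S7fl/fl (log2 -1.72 ± 0.17, with edgeR adjusted p = 1.42e-08).

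**Figure D2:**
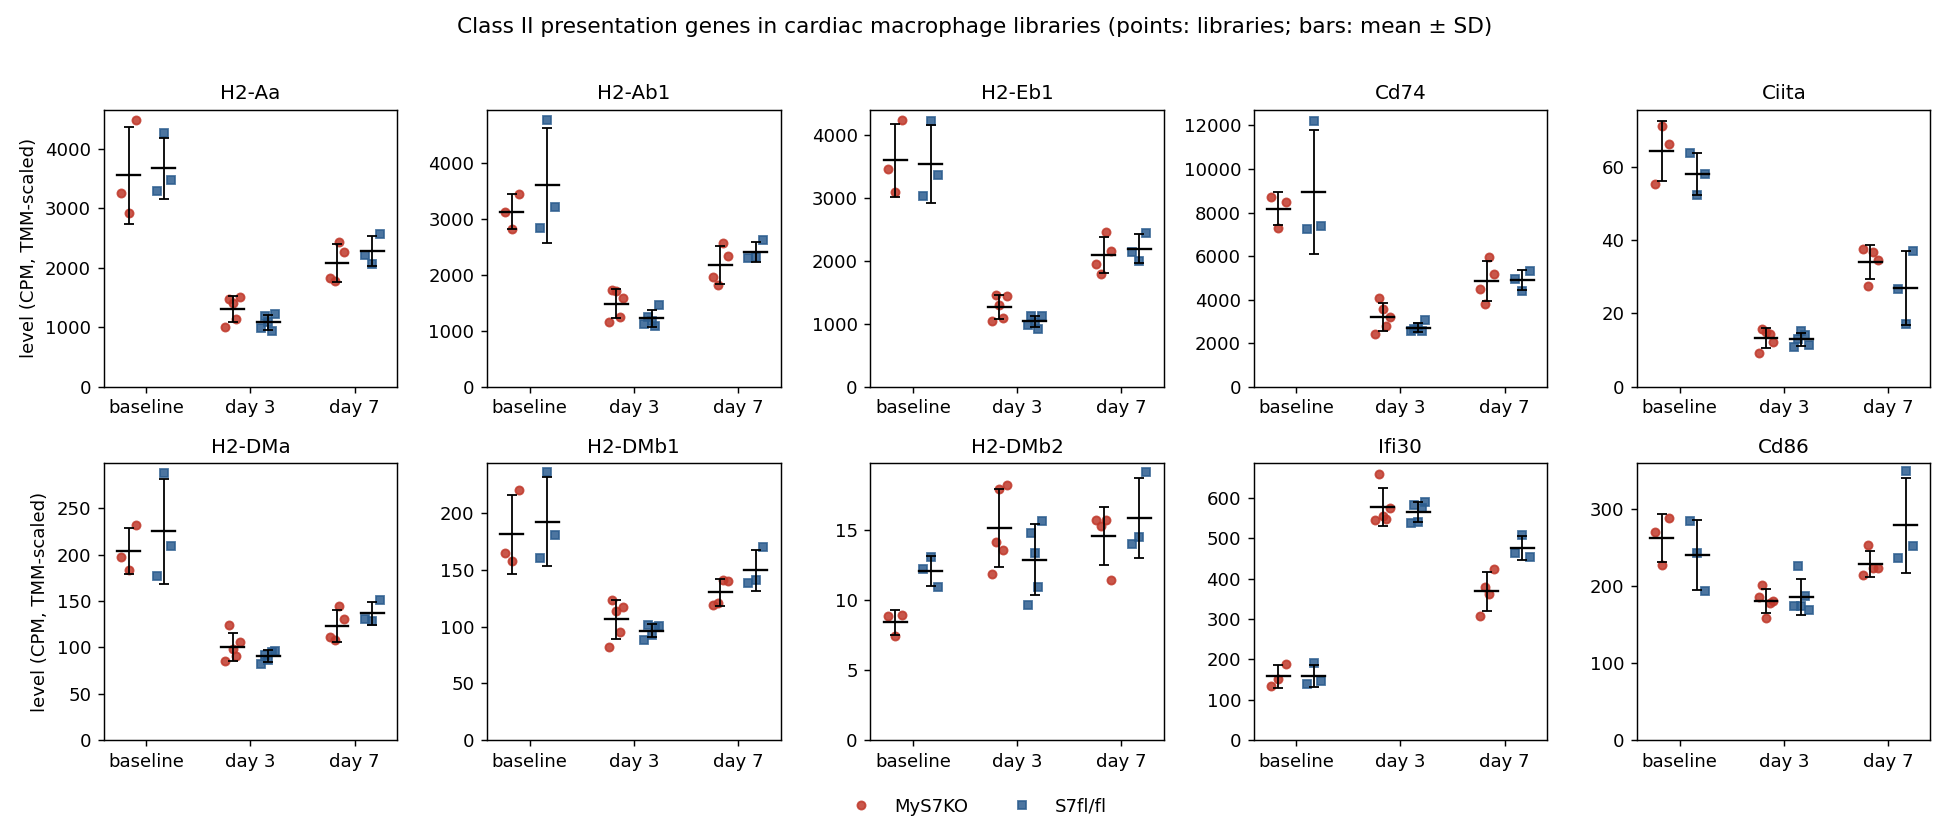
Level of each of the 10 genes in each library (y axis, TMM-scaled CPM, linear, 1 scale a panel) by time and genotype, with mean ± SD. Most panels show high baseline, low day 3 and intermediate day 7 values with overlapping genotypes, Ifi30 shows the reverse order, and H2-DMb2 shows its lowest values in the 3 MyS7KO baseline libraries.

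Of the peptide exchange genes, H2-DMa and H2-DMb1 fell at day 3 in both genotypes. H2-DMa (chromosome 17, 34135182 to 34139101) spanned 85.5 to 124 CPM in MyS7KO at day 3, against 184 to 232 CPM at baseline, and 81.7 to 96.3 CPM in S7fl/fl at day 3, against 177 to 288 CPM at baseline. The changes were log2 -1.02 ± 0.14 in MyS7KO and -1.31 ± 0.14 in S7fl/fl for H2-DMa, and day 3 and baseline were separate in both. H2-DMb1 (chromosome 17, 34153072 to 34160230) spanned 82.4 to 124 CPM in MyS7KO at day 3, against 158 to 221 CPM at baseline, and 88.3 to 101 CPM in S7fl/fl at day 3, against 160.2 to 236 CPM at baseline. It fell 1.70-fold in MyS7KO and 2.00-fold in S7fl/fl (with edgeR adjusted p = 3.51e-05 and 1.22e-06).

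H2-DMb2 (chromosome 17, 34143307 to 34151553), the neighbouring beta chain gene, went the other way. It read 8.87, 7.41 and 8.97 CPM in MyS7KO at baseline, 11.9, 14.2, 17.9, 13.6 and 18.2 CPM at day 3, and 15.8, 15.3, 15.7 and 11.5 CPM at day 7. In S7fl/fl it read 12.3, 13.1 and 11 CPM at baseline, 9.68, 14.8, 13.4, 11 and 15.7 CPM at day 3, and 14, 14.5 and 19.2 CPM at day 7. All later MyS7KO libraries lay above all MyS7KO baseline libraries, while in S7fl/fl day 3 and baseline overlapped. In the order of the 6 group means, each neighbouring pair overlapped but the last, S7fl/fl baseline above MyS7KO baseline. At day 3 H2-DMb2 rose 1.80-fold in MyS7KO (log2 0.85 ± 0.18, edgeR adjusted p = 0.000214), and its S7fl/fl change was log2 0.09 ± 0.17 (edgeR adjusted p = 0.659). Per length H2-DMb2 stood at 12.4 ± 1.48% of H2-DMb1 in MyS7KO at day 3, against 4.09 ± 0.567% at baseline, and at 11.6 ± 1.92% in S7fl/fl at day 3, against 5.58 ± 0.953% at baseline. Stretches of 100 bases identical in both genes made up 10.3% of those in H2-DMb2 transcripts and 11.3% of those in H2-DMb1 transcripts, and no other member shared such a stretch with another gene. How the authors' counting treated reads from shared stretches is not given in the sources used here, so the level of H2-DMb2, at 136 to 345 counts a library, is uncertain to that extent. The box pair ahead of the RefSeq start of both genes, printed above for H2-DMb2, had the same gap.

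Ifi30 (chromosome 8, 70762774 to 70766663) rose where the class II chains fell. It read 133, 152 and 189 CPM in MyS7KO at baseline, 546, 659.6, 555, 549 and 575 CPM at day 3, and 308, 379, 363 and 425 CPM at day 7. The S7fl/fl libraries read 139, 191 and 147 CPM at baseline, 538, 582, 542, 575 and 591 CPM at day 3, and 464, 509 and 453 CPM at day 7. The times did not overlap in either genotype, with day 3 highest. Ifi30 rose 3.66-fold at day 3 in MyS7KO (log2 1.87 ± 0.13, edgeR adjusted p = 5.36e-11) and 3.56-fold in S7fl/fl (log2 1.83 ± 0.13, with edgeR adjusted p = 8e-11). Per length it stood at 66.4 ± 9.84% of H2-Ab1 in MyS7KO at day 3, against 8.43 ± 1.15% at baseline, and at 78.1 ± 7.5% in S7fl/fl at day 3, against 7.52 ± 0.762% at baseline. Between genotypes the day 3 and the baseline ranges overlapped, and the day 7 ranges did not. The gene 6330537M06Rik overlaps 85 bases of Ifi30 exons on the opposite strand.

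Cd86 (chromosome 16, 36603869 to 36666081) had group means from 181 to 279.5 CPM. In MyS7KO it read 271, 228 and 289 CPM at baseline, 186, 202, 159, 179 and 181 CPM at day 3, and 215, 254, 223 and 224 CPM at day 7. In S7fl/fl it read 285, 243 and 194 CPM at baseline, 174, 226, 174, 188 and 169 CPM at day 3, and 236, 350.2 and 252 CPM at day 7. Day 3 and baseline were separate in MyS7KO and overlapped in S7fl/fl, and each neighbouring pair in the order of the 6 group means overlapped. Cd86 fell 1.45-fold at day 3 in MyS7KO (log2 -0.53 ± 0.13, edgeR adjusted p = 0.00121) and 1.29-fold in S7fl/fl (log2 -0.37 ± 0.13, with edgeR adjusted p = 0.0178). The S7fl/fl call ended without S7fl/fl baseline replicate 1 (log2 -0.22, edgeR adjusted p = 0.208).

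By day 7 the class II chains, Cd74 and Ciita had risen above day 3 in both genotypes without regaining baseline. Against day 3, 6 members were higher and 1 was lower in MyS7KO, where 39.6% of all genes were called, 20.5% higher and 19.1% lower. In S7fl/fl 8 were higher and 0 lower, where 21.7% of all genes were called, 11.5% higher and 10.1% lower. The groups did not overlap for 5 members upward and 1 downward in MyS7KO (14.7% and 16.3% of all genes) and for 8 and 1 in S7fl/fl (13.1% and 12.2%). The member called lower was Ifi30 in MyS7KO (log2 -0.65 ± 0.11, edgeR adjusted p = 7.82e-05), while its S7fl/fl change was log2 -0.25 ± 0.12 (edgeR adjusted p = 0.149). Ciita rose 2.58-fold in MyS7KO (log2 1.37 ± 0.18, edgeR adjusted p = 3.32e-06) and 2.09-fold in S7fl/fl (log2 1.07 ± 0.19, with edgeR adjusted p = 0.00033). H2-Aa rose 1.60-fold in MyS7KO and 2.11-fold in S7fl/fl, and Cd74 1.51-fold in MyS7KO and 1.80-fold in S7fl/fl (for these, edgeR adjusted p = 0.000723, 3.14e-05, 0.00502 and 0.00106). H2-DMa rose in S7fl/fl (log2 0.59 ± 0.14, with edgeR adjusted p = 0.00302) and stood at log2 0.29 ± 0.13 in MyS7KO (edgeR adjusted p = 0.0707), and H2-DMb1 was alike, with 0.64 ± 0.14 in S7fl/fl and 0.29 ± 0.13 in MyS7KO (edgeR adjusted p = 0.00165 and 0.0705). Both passed in MyS7KO without MyS7KO day 3 replicate 2 (edgeR adjusted p = 0.0237 for H2-DMa and 0.0404 for H2-DMb1), and H2-DMa also without MyS7KO day 7 replicate 3 (0.0432). Cd86 rose in MyS7KO (log2 0.34 ± 0.12, edgeR adjusted p = 0.0323) and S7fl/fl (log2 0.59 ± 0.13, edgeR adjusted p = 0.0025). The MyS7KO call ended when MyS7KO day 3 replicate 3, 4 or 5 or MyS7KO day 7 replicate 3 or 4 was left out (edgeR adjusted p = 0.0525 to 0.0928), with sex as a covariate (0.0704) and without the libraries of mixed sex signal (0.0898). Leaving out those libraries brought H2-DMa (0.0435) and H2-DMb1 (0.0396) past the threshold in MyS7KO.

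Against baseline, day 7 showed 2 members higher and 7 lower in MyS7KO, where 44% of all genes were called, 22.2% higher and 21.8% lower. In S7fl/fl 1 was higher and 6 were lower, where 50.2% of all genes were called, 24.8% higher and 25.4% lower. The groups did not overlap for 2 members upward and 7 downward in MyS7KO (21.4% and 22.5% of all genes) and for 2 and 6 in S7fl/fl (28% and 29.3%). The deficit was 1.89-fold for Ciita in MyS7KO and 2.16-fold in S7fl/fl (log2 -0.91 ± 0.19 and -1.11 ± 0.21, with edgeR adjusted p = 0.000664 and 0.000185). For H2-Aa, H2-Ab1, H2-Eb1 and Cd74 it was 1.44 to 1.72-fold in MyS7KO and 1.49 to 1.83-fold in S7fl/fl. H2-Ab1 had the smallest of these (log2 -0.53 ± 0.17 in MyS7KO and -0.58 ± 0.18 in S7fl/fl, with edgeR adjusted p = 0.0156 and 0.012). Its S7fl/fl call ended without S7fl/fl baseline replicate 2 (log2 -0.32, edgeR adjusted p = 0.139). Its MyS7KO call ended without MyS7KO baseline replicate 1 or 3 or MyS7KO day 7 replicate 3 (edgeR adjusted p = 0.0511 to 0.0641). H2-DMb1 fell in MyS7KO (log2 -0.48 ± 0.14, edgeR adjusted p = 0.00983), not without MyS7KO baseline replicate 3 (-0.31, edgeR adjusted p = 0.103), and stood at -0.36 ± 0.15 in S7fl/fl (with edgeR adjusted p = 0.0548). That S7fl/fl change passed without S7fl/fl baseline replicate 1 (log2 -0.47, edgeR adjusted p = 0.0276) or S7fl/fl day 7 replicate 4 (-0.46, 0.0336). Ifi30 remained higher, 2.34-fold in MyS7KO and 2.99-fold in S7fl/fl (with edgeR adjusted p = 1.1e-07 and 5.33e-09). H2-DMb2 was 1.73-fold higher in MyS7KO (log2 0.79 ± 0.18, edgeR adjusted p = 0.00128) and stood at log2 0.39 ± 0.19 in S7fl/fl, where the groups did not overlap but the change did not pass (edgeR adjusted p = 0.087). Cd86 did not pass in either genotype (log2 -0.20 ± 0.14 in MyS7KO, 0.21 ± 0.15 in S7fl/fl, with edgeR adjusted p = 0.261 and 0.241). The comparisons of day 3 and of day 7 with baseline share their baseline libraries.

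**Figure D3:**
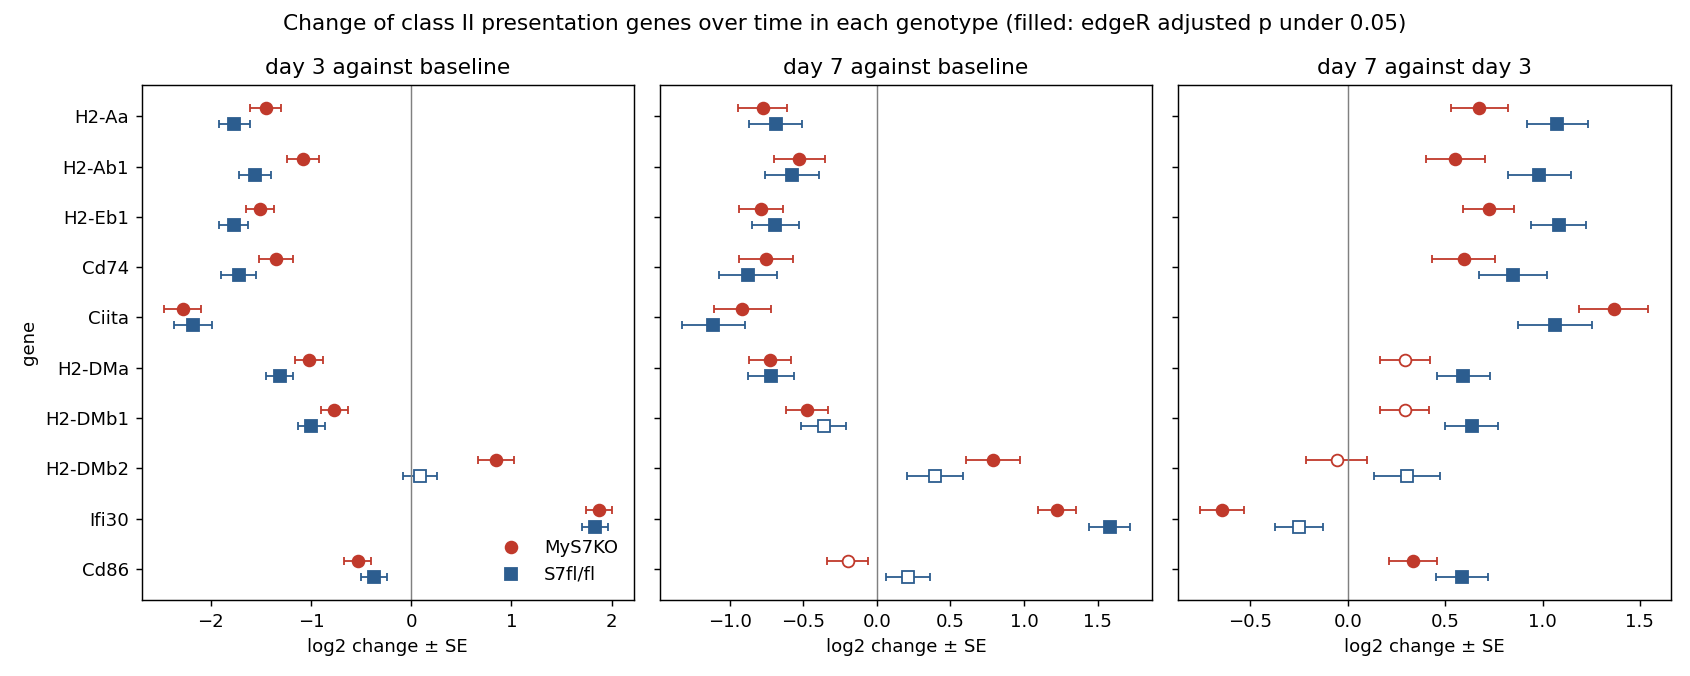
Log2 change ± standard error of each gene between times (x axis) in MyS7KO (circles) and S7fl/fl (squares), filled where edgeR's adjusted p is under 0.05. Against baseline Ciita lies lowest and Ifi30 highest in both genotypes, and from day 3 to day 7 H2-Aa, H2-Ab1, H2-Eb1, Cd74 and Ciita lie right of 0.

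Transcripts of other cells moved over the same times. The counts of marker genes at day 3 are to be read against all genes tested. Of these, 30.7% were called higher and 35.2% lower in MyS7KO, and 29.9% and 34.1% in S7fl/fl. The sum of 11 B cell markers was 169 to 227 CPM in MyS7KO and 200.4 to 239 CPM in S7fl/fl at baseline, 35.2 to 63 and 31.7 to 46.9 CPM at day 3, and 114 to 122 and 73.3 to 135 CPM at day 7. Of the 10 B cell markers tested, 6 fell at day 3 against baseline in MyS7KO and 10 fell in S7fl/fl. Most of that sum was Ighm, the IgM heavy chain (125 to 192 and 141 to 186 CPM at baseline), and the B cell markers Cd79a and Ms4a1 reached at most 6.35 and 6.15 CPM in any library. The dendritic cell sum (11 genes) was 222 to 280 CPM in MyS7KO and 280.4 to 303 CPM in S7fl/fl at baseline, 149.8 to 230.4 and 159 to 204 CPM at day 3, and 134 to 205 and 186 to 223 CPM at day 7. Of its 11 genes, 4 rose and 6 fell at day 3 in MyS7KO, and 4 rose and 7 fell in S7fl/fl. Siglech, a marker of plasmacytoid dendritic cells, fell most (log2 -3.48 ± 0.36 in MyS7KO and -4.01 ± 0.37 in S7fl/fl). Batf3, Zbtb46, Clec10a, Clec9a and Kmo fell in both, Cd209a fell in S7fl/fl, and Ccr7, Flt3, Xcr1 and Itgae rose in both. Resident macrophage markers (Timd4, Lyve1, Folr2 and Cd163) summed to 2048 to 2513 CPM in MyS7KO and 1541 to 2248 CPM in S7fl/fl at baseline. At day 3 they summed to 57.1 to 115 and 78.8 to 174.5 CPM, and at day 7 to 94.3 to 200.5 and 116 to 247 CPM. Monocyte markers (Ly6c2, Ccr2, Plac8, Chil3 and Fn1) ran the other way, with 321 to 606 and 494 to 617 CPM at baseline, 3622 to 6836 and 4271 to 8990 CPM at day 3, and 2316 to 3097 and 2325 to 4489 CPM at day 7 in MyS7KO and S7fl/fl. Each of these genes was called higher at day 3 in both genotypes. At day 7 against baseline Fn1 (log2 2.75 ± 0.36 and 3.00 ± 0.37), Chil3 and Ccr2 were still called higher. Ly6c2 (0.60 ± 0.47 and 0.04 ± 0.49) and Plac8 (0.46 ± 0.41 and -0.16 ± 0.43) were then not called. The neutrophil sum (7 genes) was 92.3 to 131 and 105 to 112 CPM at baseline, 102 to 151 and 124 to 212 CPM at day 3, and 156 to 176 and 139 to 191 CPM at day 7 in MyS7KO and S7fl/fl. Of the 6 neutrophil genes tested, 1 rose and 3 fell in MyS7KO and 1 rose and 1 fell in S7fl/fl at day 3, with Mmp8 upward (log2 4.54 ± 0.40 and 4.85 ± 0.40) and S100a9 downward (-2.33 ± 0.65 and -1.48 ± 0.63). Ly6g, the antigen used to remove neutrophils, was at 0 counts in all MyS7KO day 3 and all day 7 libraries, and at 3 counts or fewer in the others. The endothelial sum (5 genes) was 742 to 1648 and 1197 to 1673 CPM at baseline, 331 to 569.7 and 227 to 538 CPM at day 3, and 128 to 882 and 164 to 336 CPM at day 7, in MyS7KO and S7fl/fl. All 5 genes fell at day 3 in both genotypes. T cell markers fell at day 3 in 4 of 4 tested, NK cell markers in 5 of 6 and cardiomyocyte markers in 5 of 5, in each genotype. The fibroblast sum (5 genes) was 446 to 927 and 623 to 936 CPM at baseline, 475 to 1086 and 227 to 987 CPM at day 3, and 1494 to 4190.0 and 1059 to 2857 CPM at day 7, in MyS7KO and S7fl/fl. Its genes diverged. Dcn (log2 -3.56 ± 0.55 and -3.58 ± 0.55) and Pdgfra (-2.69 ± 0.49 and -2.55 ± 0.49) fell at day 3. Both were still called lower at day 7 against baseline, where Col1a1 (3.33 ± 0.52 and 2.59 ± 0.52), Col1a2 and Col3a1 were called higher in both genotypes. The part of these cells in the class II changes was not tested.

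**Figure D4:**
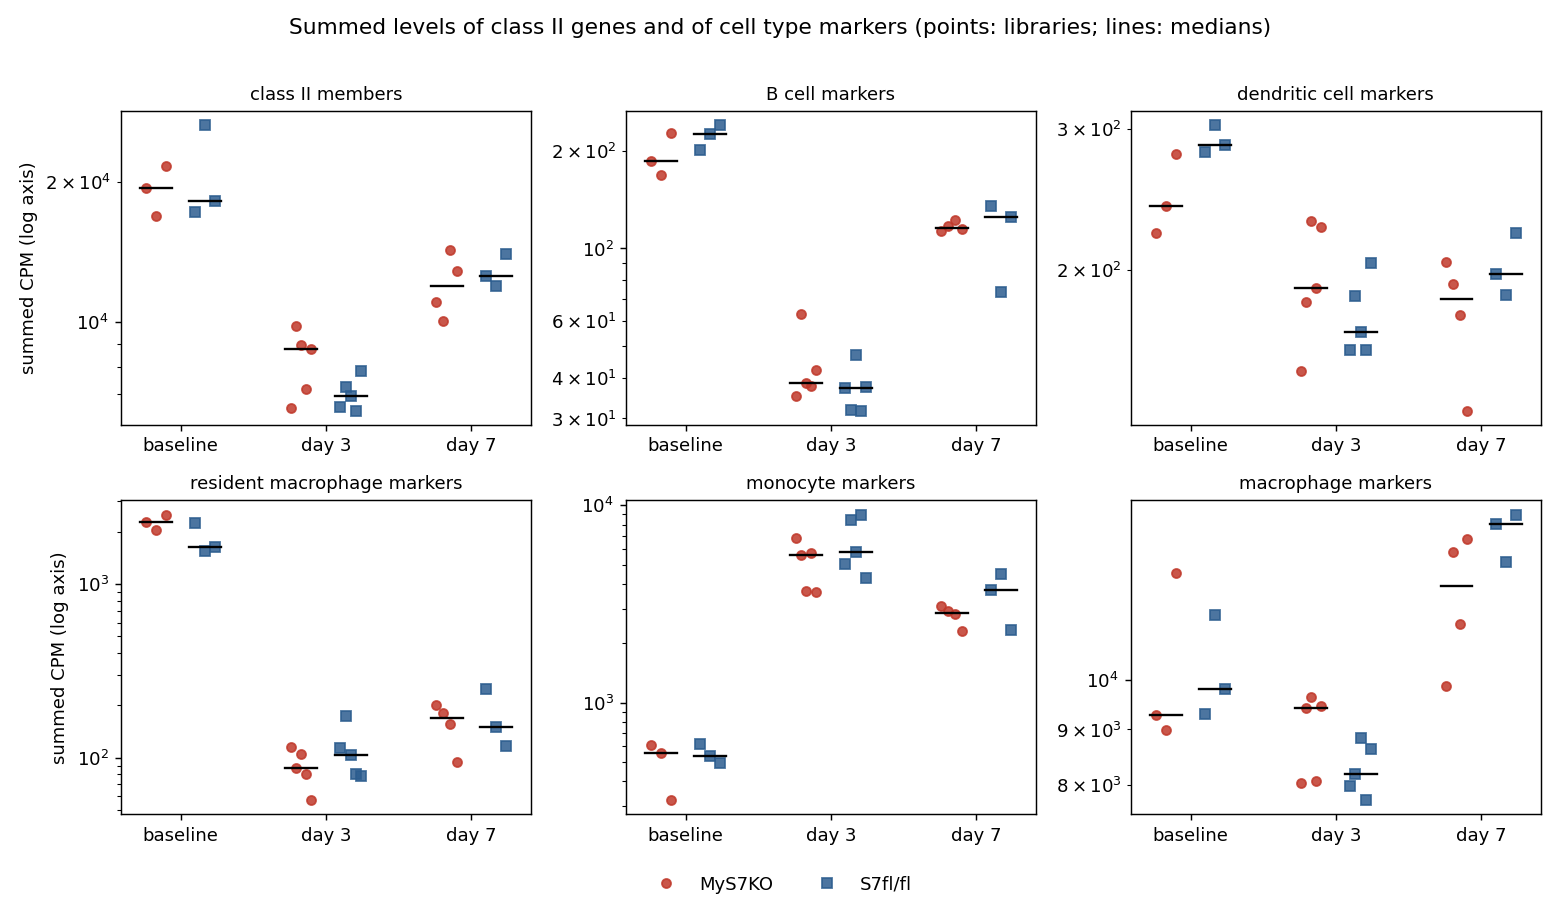
Summed CPM (y axis, log scale, its own range in each panel) of the 10 class II genes and of 5 cell type marker lists in each library, by time and genotype, with medians as lines. Class II, B cell and resident macrophage sums are lowest at day 3, and the monocyte sum is highest there.

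MyS7KO and S7fl/fl were then set against each other within each time, to ask whether class II transcripts differ with the deletion. Most MyS7KO baseline libraries had Smad7 levels close to S7fl/fl, as given above, which limits each genotype comparison that uses baseline. By edgeR 0 of 10 members were called at baseline, at day 3 or at day 7, where 0.0121%, 0.0121% and 0.0181% of all genes were called. DESeq2 and limma-voom also called 0 of 10 at each time, and 1 member at each time had an unadjusted p under 0.05, where 2.27%, 3.59% and 13.1% of all genes did. These were H2-DMb2 at baseline, H2-Eb1 at day 3 and Ifi30 at day 7. The median log2 difference of the members was -0.07 at baseline, 0.19 at day 3 and -0.14 at day 7, against -0.03, -0.00 and -0.01 over all genes tested.

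At baseline H2-DMb2 had 7.41 to 8.97 CPM in MyS7KO against 11 to 13.1 CPM in S7fl/fl. The groups did not overlap, as was the case for 3.43% of all genes tested in this direction and for 2.77% in the other. Its log2 difference was -0.52 ± 0.19 (95% interval -0.92 to -0.13), which did not pass (edgeR adjusted p = 0.999, 0.709 to 1 over the alternatives). The other 9 members overlapped, with log2 differences from -0.20 for H2-Ab1 (interval -0.58 to 0.18) to 0.14 for Ciita (-0.29 to 0.58). Without S7fl/fl baseline replicate 2 the value of H2-Ab1 was 0.05 and that of Cd74 0.16, where Cd74 stood at -0.13 with all libraries. For Cd74 the interval ran from -0.54 to 0.28 and for H2-Aa from -0.42 to 0.32.

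At day 3 the differences of 9 of the 10 members were positive and 0 of 10 had separate groups, where 0.278% of all genes did upward and 0.284% downward. The class II chains, Cd74, H2-DMa and H2-DMb1 varied together within groups. Counts of signs, here and below, are therefore not counts of separate results. H2-Eb1 averaged 1264 ± 191 CPM in MyS7KO and 1035 ± 93.8 CPM in S7fl/fl (SD, n = 5 each; log2 0.29 ± 0.12, edgeR adjusted p = 0.982). H2-Ab1 (0.28 ± 0.14), H2-Aa (0.27 ± 0.14) and Cd74 (0.24 ± 0.15) stood close by, and Cd86 was the negative one (-0.04 ± 0.12). MyS7KO replicates 2 and 3, the highest of their group for Cd74 and H2-Ab1, were 2 of the 3 libraries with a mixed sex signal. Without those 3 the log2 differences were 0.16 for H2-Eb1, 0.08 for H2-Ab1, 0.12 for H2-Aa and 0.03 for Cd74. With sex as a covariate they were 0.28, 0.26, 0.25 and 0.20.

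At day 7 the differences of 9 members were negative, and the MyS7KO libraries were the female and the S7fl/fl libraries the male ones. Ifi30 averaged 369 ± 48.2 CPM in MyS7KO (n = 4) and 476 ± 29.8 CPM in S7fl/fl (n = 3). The groups did not overlap, which held for 5.63% of all genes tested in this direction and 3.27% in the other, and the log2 difference of -0.37 ± 0.13 did not pass (interval -0.62 to -0.11, edgeR adjusted p = 0.294, 0.146 to 0.804 over the alternatives). Cd86 stood at -0.29 ± 0.14 (edgeR adjusted p = 0.382), with S7fl/fl replicate 3 at 350.2 CPM, and at -0.09 without that library. Ciita was the positive one at 0.34 ± 0.20 (edgeR adjusted p = 0.465), with overlapping groups, and at 0.10 without S7fl/fl replicate 3 and 0.64 without S7fl/fl replicate 4. The 95% interval was -0.48 to 0.21 for H2-Aa, -0.51 to 0.20 for H2-Ab1, -0.38 to 0.24 for H2-Eb1 and -0.39 to 0.37 for Cd74.

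**Figure D5:**
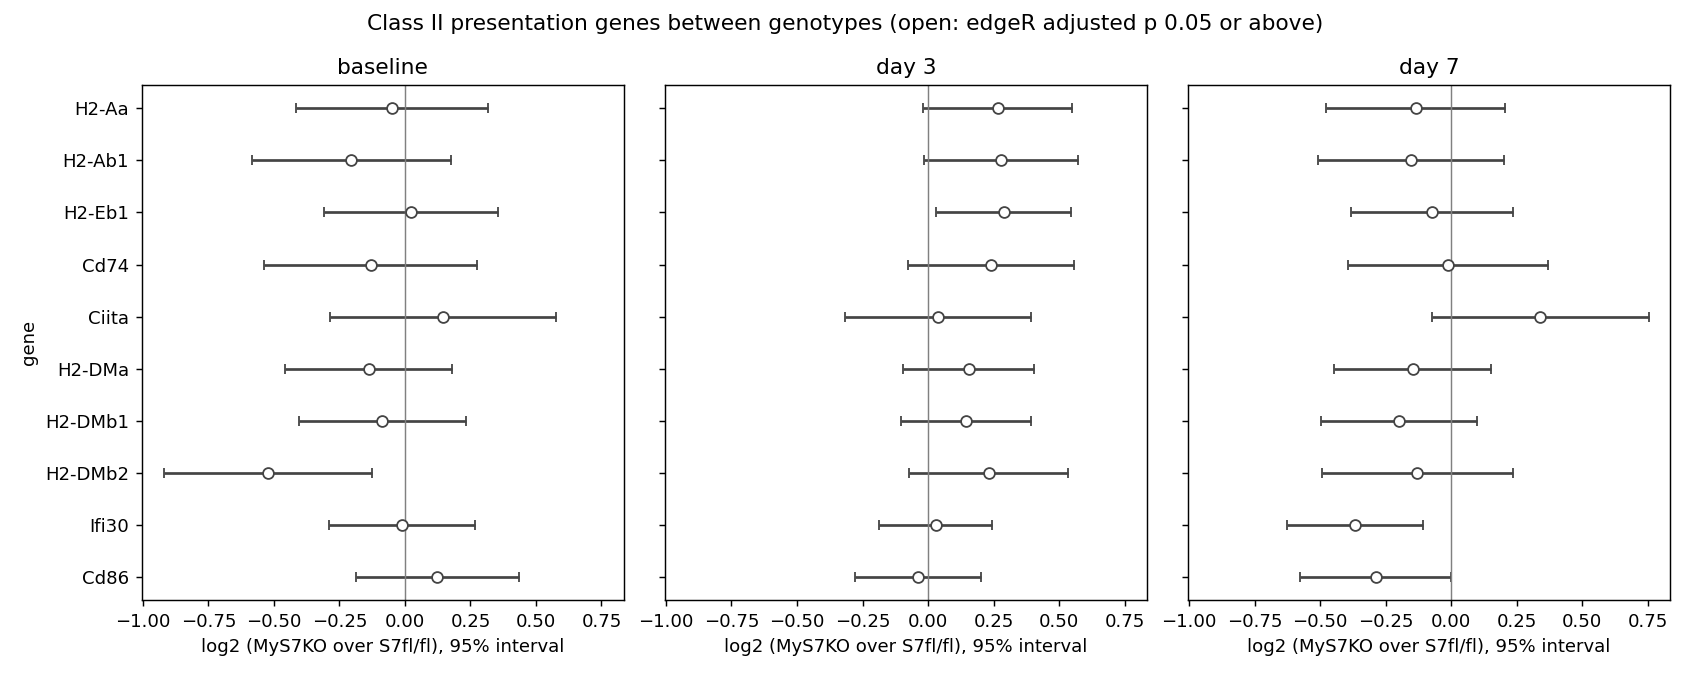
Log2 of MyS7KO over S7fl/fl with its 95% interval (x axis) for each gene at the 3 times. The points are open because no adjusted p was under 0.05, and only the intervals of H2-DMb2 at baseline, H2-Eb1 at day 3 and Ifi30 at day 7 lie wholly on 1 side of 0.

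The genotype effects were then compared between times. By edgeR 0 of 10 members and 0% of all genes were called in each of these 3 comparisons, and DESeq2 and limma-voom called 0 of 10. An unadjusted p under 0.05 was found for 2, 0 and 1 members in the comparisons of day 3 with baseline, day 7 with baseline and day 7 with day 3, where 4.48%, 5.21% and 10.4% of all genes had one. H2-DMb2 had the largest difference of the members, 0.76 ± 0.24 on the log2 scale between day 3 and baseline, and H2-Ab1 had 0.48 ± 0.23 (edgeR adjusted p = 0.878 for each). The rise of H2-DMb2 that was called in MyS7KO and not in S7fl/fl at day 3 was thus not shown to differ between genotypes. Between day 7 and day 3, 9 of 10 members had a negative difference, led by H2-Ab1 (-0.43 ± 0.22), H2-Aa (-0.40 ± 0.22) and Ifi30 (-0.39 ± 0.16), with edgeR adjusted p from 0.449 to 0.698 over the 10. The day 7 libraries were female in MyS7KO and male in S7fl/fl. In both comparisons that involve day 7, genotype and sex thus cannot be told apart.

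Across the 23 libraries the class II chains, Cd74, H2-DMa and H2-DMb1 had closely similar profiles. Correlations of log2 CPM (Pearson) are a description, since the libraries share groups, depth and composition. H2-Aa correlated with H2-Eb1 at 1.00, with H2-Ab1 and Cd74 at 0.98, with H2-DMb1 at 0.97, with H2-DMa at 0.96 and with Ciita at 0.93. With Cd86 its correlation was 0.68, with H2-DMb2 -0.29 and with Ifi30 -0.84. After each gene was centred on its group means, which leaves only the spread within groups, H2-Aa kept 0.97 with H2-Eb1, 0.90 with H2-DMb1, 0.88 with H2-Ab1 and 0.80 with Cd74. Ciita then stood at 0.34 with H2-Aa, Cd86 at 0.03, H2-DMb2 at 0.57 and Ifi30 at 0.58. The negative sign of H2-DMb2 and Ifi30 was thus seen between groups and not within them.

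The genes outside the 10 most like the mean standardized profile of H2-Aa, H2-Ab1, H2-Eb1 and Cd74 over all libraries were Tmem176b (r = 0.977) and Tmem176a (0.974), followed by Smagp, Arid5a, Lag3, Irf1, Atf3, Trim12a, Mob3c and Lbh (0.953 to 0.961). After centring they included Syngr2 (0.879), Etfb, Eef1d, Trmt112-ps2, Psmb9, Tmem176b (0.821), Vkorc1, AI606181 and Eef1b2 (0.807 to 0.874 for those without a value). Tmem176b was in both lists. H2-DMa and H2-DMb1 held ranks 7 and 8 of all genes over the libraries, and Ciita rank 91.

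Other genes of the pathway are counted from lists, here and below, to be read against the shares of all genes called. At day 3 against baseline these were 65.9% in MyS7KO (30.7% higher, 35.2% lower) and 64% in S7fl/fl (29.9% and 34.1%). For day 7 against baseline they were 44% (22.2% and 21.8%) and 50.2% (24.8% and 25.4%). From day 3 to day 7 they were 39.6% (20.5% and 19.1%) and 21.7% (11.5% and 10.1%). Among 16 regulators of class II genes, 3 rose and 5 fell at day 3 in MyS7KO, and 2 rose and 6 fell in S7fl/fl. Irf1, an interferon-induced activator of Ciita, fell to 111 ± 16.4 CPM in MyS7KO at day 3, against 467 ± 78 CPM at baseline (log2 -2.08 ± 0.21), and by log2 -2.09 ± 0.21 in S7fl/fl (with edgeR adjusted p = 2.62e-08 in each). Irf4, a lymphoid and myeloid relative, fell by -1.50 ± 0.13 and -1.54 ± 0.13, and Rfx5, a subunit of the X box factor, by -0.65 ± 0.15 and -0.71 ± 0.15 in MyS7KO and S7fl/fl. Spi1, the myeloid factor PU.1, rose by 1.00 ± 0.13 and 0.77 ± 0.13. Nfyb and Nfyc, subunits of the Y box factor, did not pass (log2 -0.09 to 0.20), and Nfya fell by 0.44 on the log2 scale in MyS7KO and 0.31 in S7fl/fl. From day 3 to day 7, 6 rose and 3 fell in MyS7KO and 6 rose and 0 fell in S7fl/fl, among them Irf1 (0.92 ± 0.19 and 0.92 ± 0.21) and Irf8 (0.54 ± 0.08 and 0.69 ± 0.09) upward in both. Il10ra, the interleukin 10 receptor chain, rose as well (0.61 ± 0.15 and 0.76 ± 0.16), as did Irf4 (0.38 ± 0.12 and 0.67 ± 0.13). At day 7 against baseline, 3 rose and 4 fell in MyS7KO, and 3 rose and 2 fell in S7fl/fl. Irf4 was still lower (-1.12 ± 0.14 and -0.87 ± 0.15), and Spi1 (0.97 ± 0.14 and 1.06 ± 0.14) and the interferon gamma receptor chain Ifngr2 (1.27 ± 0.17 and 1.39 ± 0.18) were higher.

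The accessory list, of peptide loading and antigen processing, was called mostly upward against baseline. At day 3 against baseline 7 of its 11 tested genes rose and 2 fell in MyS7KO, and 8 rose and 2 fell in S7fl/fl. Lysosomal proteases led, with Ctsd at log2 3.80 ± 0.19 and 3.62 ± 0.19, Ctsl at 2.85 ± 0.20 and 2.91 ± 0.20 and Ctsb at 1.93 ± 0.15 and 1.96 ± 0.15 in MyS7KO and S7fl/fl. Ctss, the protease that trims Cd74, averaged 3207 ± 180.0 CPM in MyS7KO at day 3, against 1060.3 ± 187 CPM at baseline, and 3192 ± 420 CPM in S7fl/fl at day 3, against 1092 ± 27.9 CPM at baseline. March1, a ubiquitin ligase that removes class II and Cd86 from the surface, fell by -2.06 ± 0.19 and -1.54 ± 0.19. The chains of the DM inhibitor diverged, with H2-Oa at 1.94 ± 0.22 and 1.34 ± 0.22 and H2-Ob at -0.72 ± 0.17 in both genotypes. H2-Eb2 rose by 0.96 ± 0.38 and 1.19 ± 0.38 but stayed at 1.74 to 3.49 CPM at day 3. At day 7 against baseline 7 rose and 1 fell in each genotype, led by Ctsd (3.49 ± 0.19 and 3.64 ± 0.19), Ctss (2.04 ± 0.16 and 2.06 ± 0.17) and Ctsl (2.07 ± 0.20 and 2.30 ± 0.21). Between day 7 and day 3, 4 rose and 4 fell in MyS7KO and 4 rose and 1 fell in S7fl/fl, with March1 upward in both (1.35 ± 0.18 and 0.89 ± 0.19). Ctsl (-0.78 ± 0.16) and the endosomal protease Lgmn (-0.58 ± 0.15) fell in MyS7KO, and Ctss (0.51 ± 0.14) and H2-Ob (0.62 ± 0.17) rose in S7fl/fl.

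Of 10 tested partners of Cd86 in co-stimulation and co-inhibition, 6 rose and 3 fell at day 3 against baseline in each genotype. Cd80, the other CD28 ligand, rose (log2 0.86 ± 0.16 in MyS7KO and 1.05 ± 0.16 in S7fl/fl), where Cd86 fell. Icosl, the ICOS ligand, fell by -1.56 ± 0.12 and -1.37 ± 0.12, and Cd83 by -1.27 ± 0.14 and -1.47 ± 0.14. Tnfsf4, the OX40 ligand, averaged 3.75 ± 0.780 CPM in MyS7KO at day 3, against 0.241 ± 0.0208 CPM at baseline, where it had 4 to 5 counts a library. In S7fl/fl it averaged 2.94 ± 0.661 CPM at day 3, against 0.249 ± 0.136 CPM at baseline, from 2 to 9 counts a library. At day 7 against day 3, 5 rose and 1 fell in MyS7KO and 6 rose and 0 fell in S7fl/fl, with Icosl (1.18 ± 0.11 and 1.43 ± 0.12) and Cd83 (0.95 ± 0.13 and 1.31 ± 0.14) upward. The checkpoint ligand Vsir (0.54 ± 0.10) rose in MyS7KO, and Cd40 (0.96 ± 0.15), the receptor through which T cells activate presenting cells, rose in S7fl/fl. Set against baseline, 5 rose and 1 fell by day 7 in MyS7KO and 7 rose and 0 fell in S7fl/fl, among them the inhibitory genes Havcr2 (1.62 ± 0.15 and 2.00 ± 0.16), which encodes TIM-3, and Cd274 (1.48 ± 0.25 and 1.35 ± 0.26), which encodes PD-L1. Tnfsf4 was then at 5.04 ± 1.73 CPM in MyS7KO and 6.79 ± 1.70 CPM in S7fl/fl.

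Of 13 genes of class I presentation, the route by which CD8+ T cells see peptide, 6 rose and 0 fell at day 3 against baseline in MyS7KO, and 4 rose and 1 fell in S7fl/fl. The peptide loading chaperones Pdia3 (log2 1.35 ± 0.12 and 1.25 ± 0.12) and Calr (1.28 ± 0.13 and 1.27 ± 0.13) led in both, followed by the immunoproteasome subunit Psmb10 in MyS7KO (0.93 ± 0.17) and the trimming peptidase Erap1 in S7fl/fl (0.66 ± 0.13). In S7fl/fl the class I chains H2-K1 (-0.41 ± 0.18), H2-D1 (-0.34 ± 0.16) and B2m (-0.09 ± 0.17) did not pass. The Tap2 transporter subunit was the gene that fell in S7fl/fl (-0.46 ± 0.18, edgeR adjusted p = 0.0259). At day 7 against baseline 4 rose and 0 fell in MyS7KO, led by Tapbp (0.58 ± 0.17), Psmb8 (0.50 ± 0.19) and Psmb10 (0.43 ± 0.17), and 2 rose and 0 fell in S7fl/fl, Pdia3 (0.50 ± 0.12) and Calr (0.40 ± 0.13). At day 7 against day 3, 1 rose and 3 fell in MyS7KO and 2 rose and 3 fell in S7fl/fl. Calr (-1.33 ± 0.11 and -0.87 ± 0.12) and Pdia3 (-1.16 ± 0.10 and -0.75 ± 0.11) fell in both, Psmb10 (-0.50 ± 0.15) fell in MyS7KO, and H2-K1 (0.56 ± 0.18) rose in S7fl/fl. Between genotypes edgeR called 0 of these pathway genes at each time.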

How the data were processed

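Poly(A) RNA of sorted cells had been sequenced for 23 libraries. The deposited counts are whole reads per gene, as the authors counted them, and were used unchanged. The authors' FPKM values were taken from their own deposited table; for genes with 100 or more counts they equalled the count over gene length and 1 constant per library, at 92.5 to 116% of the column total. TopHat2 2.0.9, Cufflinks 2.1.1 and HTSeq 0.6.1, and the builds mm10 and GRCm38.p6, are listed in the submitters' processing notes, without their roles.

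All 23 libraries entered 1 edgeR model (version 4.0.16, with limma 3.58.1 under R 4.3.3) of 6 group means, after filterByExpr and TMM scaling, with the robust quasi-likelihood test, two-sided. Benjamini-Hochberg adjustment ran over all 16545 genes tested. The smallest groups, of 3 libraries, limit precision. The members and gene lists were chosen with earlier results of these data known. All members are named. Pathway lists are counted whole, with the 3 called genes of lowest p named in each comparison, and other genes of these lists and marker genes were named after their values were seen. Likeness is the Pearson correlation with the mean standardized log2 CPM of H2-Aa, H2-Ab1, H2-Eb1 and Cd74, with predicted genes left unnamed.

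The alternatives were DESeq2 1.42.0, limma-voom with quality weights, RLE scaling, all genes unfiltered, a fit of the compared groups alone, limma on log2(FPKM + 1), filtered or not, and on log2(FPKM + 0.1), a replicate block, sex as a covariate, removal of libraries with a mixed sex signal, and each library left out. Replicate numbers were not taken to pair the samples. The 35 pairs of libraries within groups each differed beyond sampling noise (chi-square over its degrees of freedom, 9.35 or more). Scripts were tested on simulated data. Promoters came from RefSeq's GRCm38.p6 windows, which were read for 6 of the 10 members. Cd74 was left out of this search. Those listed for H2-DMa lie away from its start in the files and were not used. A few genes that the naming rules would give are not reported here.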

Additional observations from a re-analysis of the deposited data

Results flagged for a closer look

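Of 30 groups of 4 or 5 libraries examined over the 10 members, 2 held a library far from the others, where chance gives about 1 in 20. MyS7KO day 7 replicate 5 read 11.5 CPM of H2-DMb2, against 15.3 to 15.8 CPM in the other MyS7KO day 7 libraries. MyS7KO day 3 replicate 2, which carries a mixed sex signal, read 659.6 CPM of Ifi30, against 546 to 575 CPM in the other MyS7KO day 3 libraries. The cause was not tested in either case.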

How the results depend on the processing

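Over 34 alternatives, 2470 recomputed values of the members gave 2437 with the same direction and call, 15 newly called, 18 no longer called and 0 reversed; 75 uncalled values changed sign. Every genotype comparison and every difference of genotype effects kept 0 members called under each alternative. For day 7 against baseline in S7fl/fl limma-voom called 8 members (2 higher, 6 lower), the added one being H2-DMb2 (log2 0.49, adjusted p = 0.0457), against 7 by edgeR; the cause was not tested. Limma-voom also added H2-DMa (0.0131) and H2-DMb1 (0.0237) at day 7 against day 3 in MyS7KO, and RLE scaling (0.0494) and DESeq2 (0.0496) added H2-DMb1 at day 7 against baseline in S7fl/fl. With 1 library left out, the members called were 10 in each case for day 3 against baseline in MyS7KO, 8 to 9 in S7fl/fl, 7 to 9 and 6 to 8 for day 7 against baseline, and 6 to 9 and 8 in each case for day 7 against day 3, in MyS7KO and S7fl/fl. On log2(FPKM + 1) with no filter, H2-Ab1 at day 7 against baseline (adjusted p = 0.0521 in MyS7KO, 0.0564 in S7fl/fl) and Cd74 (0.0709) and Cd86 (0.0834) at day 7 against day 3 in MyS7KO were no longer called.

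The labels give the groups shared replicate numbers. Deviations from the group means correlated at -0.352 to 0.272 between libraries that share a number (10 such pairs), and in 4 that number gave the best match, so the numbers were not taken to pair the samples. With a replicate block, members called were 10 and 8 for day 3 against baseline, 9 and 8 for day 7 against baseline and 9 and 8 for day 7 against day 3 in MyS7KO and S7fl/fl, and 0 in the genotype comparisons. The block ended the day 3 call of Cd86 in S7fl/fl (log2 -0.34, adjusted p = 0.0537) and added H2-DMa (0.0321) and H2-DMb1 (0.0357) at day 7 against day 3 in MyS7KO and H2-DMb1 (0.0147) at day 7 against baseline in S7fl/fl.

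Groups of 3 libraries and shared baselines limit these comparisons: the 95% intervals of uncalled genotype differences reached -0.92 on the log2 scale for H2-DMb2. Poly(A) counts do not show protein on the cell surface.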
